A study of Mus musculus with 27 samples.

Results

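The libraries described here hold the suprachiasmatic nucleus (SCN) at the ends of the night and of the day. Mature miRNAs were counted by small-RNA sequencing of SCN tissue from C57BL/6 mice, and the 7 libraries were taken from a time course by their labelled zeitgeber time (ZT, hours counted from lights on), 7 of 27 libraries in the series. The group around dawn held 3 libraries, at ZT2, ZT22 and ZT26, and the group around dusk held 4, at ZT10, ZT14, ZT34 and ZT38. The labels give no genotype other than the strain, no treatment, age, sex or light schedule for these samples, and do not say how many animals went into a library. Each library is its own time point, so the spread within a group holds the time within the group, the cycle and the animals together, and p-values measure the spread between these libraries. The other 4 libraries of the time course, at ZT6 and ZT30 (midday) and at ZT18 and ZT42 (midnight), lie between the groups and served as a comparison. Values of single libraries are given in the order ZT2, ZT22 and ZT26 around dawn and ZT10, ZT14, ZT34 and ZT38 around dusk.

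The SCN is the brain's central circadian clock. In its neurons the transcription factors CLOCK and BMAL1 drive the Per and Cry genes, whose proteins feed back on them, and light reaching the retina resets this loop around dawn and dusk. MiRNAs are short RNAs that lower the output of messenger RNAs, which they recognise chiefly through the seed, bases 2 to 8 from the 5′ end. Several miRNAs have been linked to the clock, among them miR-219 and miR-132, the second being induced by light in the SCN. The neuronal miR-124-3p stood at 24816 to 47206 CPM around dawn and 34472 to 45836 around dusk (CPM, counts per 1000000 miRNA reads). The hypothalamic miR-7a-5p stood at 13929 to 40337 CPM around dawn and 9000.3 to 13077 around dusk. A marker of neurons and a marker of hypothalamic tissue were thus present in all 7 libraries. Of the 13 hypothalamic and endocrine miRNAs listed, 8 were abundant enough to be tested. miRNAs listed as markers of other cells were present too. Oligodendrocyte miRNAs summed to 1673 to 2193 CPM around dawn and 1751 to 2178 around dusk, and muscle and liver miRNAs to 529 to 646 CPM around dawn and 449 to 659.6 around dusk. Most of the muscle and liver sum was miR-192-5p, which is also counted among the clock-linked miRNAs. That sum alone therefore does not show muscle or liver cells in these libraries.

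No miRNA passed the test of dawn against dusk, and the 10 with the smallest p in each direction, among those with a mean of at least 50 CPM in the higher group, are described first. Mature sequences of 17 of them were read from RefSeq's miRNA table (GRCm38.p6) and are printed 5′ to 3′ with the seed in capitals, because the 2 sets differ in GC content and some members share a seed. The sequences of miRNAs that were higher around dawn were as follows.
miR-7a-5p: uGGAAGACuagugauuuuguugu
miR-7b-5p: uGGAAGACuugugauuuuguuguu
miR-98-5p: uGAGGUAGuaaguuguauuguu
let-7f-5p: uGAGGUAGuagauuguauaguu
miR-10a-5p: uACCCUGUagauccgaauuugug
miR-335-5p: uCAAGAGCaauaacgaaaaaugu
miR-340-5p: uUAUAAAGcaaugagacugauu
miR-541-3p: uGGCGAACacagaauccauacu
miR-146b-5p: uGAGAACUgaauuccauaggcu

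The sequences of miRNAs that were lower around dawn were as follows.
miR-370-3p: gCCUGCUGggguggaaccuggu
miR-423-5p: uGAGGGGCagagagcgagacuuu
miR-770-5p: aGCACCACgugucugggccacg
miR-149-5p: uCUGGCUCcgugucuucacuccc
miR-668-3p: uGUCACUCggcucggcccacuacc
miR-423-3p: aGCUCGGUcugaggccccucagu
miR-125a-5p: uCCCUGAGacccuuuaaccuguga
miR-125b-5p: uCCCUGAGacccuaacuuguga

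The test found no single miRNA that differed between the SCN around dawn and around dusk. Of 328 miRNAs with a deposited value of 100 or more (10 CPM) in at least 3 of the 7 libraries, 0 (0%) had an adjusted p under 0.05 in limma, with a smallest adjusted p of 0.99, and 4 (1.22%) had an unadjusted p under 0.05. These 4 were miR-370-3p, lower around dawn, and miR-7a-5p, miR-7b-5p and miR-146b-5p, higher around dawn. All 3 dawn libraries lay above all 4 dusk libraries for 4 miRNAs (1.22%) and below them for 8 (2.44%). Overlap of the groups is judged on the deposited scale here and below, and another scaling can change it. The log2 differences had an interquartile range of −0.30 to 0.19 around a median of −0.056. Of the 328, 141 were higher and 187 lower around dawn. The model's log2 difference exceeded 1 in size for 5, miR-450a-5p, higher, and miR-500-3p, miR-96-5p, miR-671-5p and miR-29c-5p, lower. With a pseudocount (the value added before log2) of 10, that of miR-29c-5p was −0.79 and that of miR-96-5p −1.08. With quantile normalization they were −0.53 and −0.98. The 95% interval of the difference lay wholly within 2-fold for 136 of the 328, and for 49 of the 64 with a mean of at least 1000 CPM. For the others the interval reached a 2-fold difference in at least 1 direction.

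The libraries did not group by dawn and dusk. Depth was 2604731 (ZT10) to 5133920 (ZT26) miRNA reads. The level that a count of 0 allows, 3 reads, was 5.85 to 11.5 on the deposited scale (10 units to 1 CPM), by counting error alone. Pairs of libraries had r of 0.962 to 0.991 over log2 miRNA levels, with a median of 0.973 over the 9 pairs within a group and 0.971 over the 12 pairs between groups. ZT2 and ZT26, both around dawn, stood at opposite ends of the first principal component, which held 39.4% of the variance. ZT2 was the highest of the 7 libraries for 120 of 328 miRNAs and ZT26 the lowest for 126. The factors of median-ratio scaling were highest at ZT2 (1.29) and lowest at ZT26 (0.77). These counts and those that follow are on the deposited scale, without such factors. Without ZT2, 93 miRNAs were higher and 235 lower around dawn and 16 had an unadjusted p under 0.05. Without ZT26, 194 were higher and 134 lower, and 17 had an unadjusted p under 0.05. No adjusted p under 0.05 arose in either case.

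The miR-7 miRNAs, abundant in hypothalamic neurons and endocrine cells, had the largest differences of the 20. miR-7a-5p and miR-7b-5p share the seed GGAAGAC, and miR-7a-5p is made from precursors on chromosome 13, 58392779 to 58392886, in an intron of Hnrnpk, and chromosome 7, 78888277 to 78888373, outside annotated genes (GRCm38). miR-7a-5p stood at 40337, 13929 and 15381 CPM around dawn and at 13077, 10000.2, 9000.3 and 12689.9 CPM around dusk. Every dawn library lay above every dusk library, but ZT22 exceeded ZT10 only by a small margin, and ZT2 alone was far above the rest. Its mean was 23216 ± 14845 CPM around dawn (SD, n = 3) and 11192 ± 2002 around dusk (SD, n = 4), 2.07-fold higher around dawn (log2 difference 0.89 ± 0.33 SE, limma adjusted p = 0.99). Without ZT2 the log2 difference was 0.40. miR-7b-5p, from chromosome 17, 56242988 to 56243098, stood at 12429, 4069.5 and 5220.1 CPM around dawn and at 4330.3, 2965, 2939.9 and 3920.1 CPM around dusk. Its ZT10 library was above ZT22, so the groups overlapped (log2 difference 0.88 ± 0.34 SE, limma adjusted p = 0.99, and 0.40 without ZT2). The passenger arm miR-7a-2-3p, with 74.9 to 152 CPM around dawn and 85.9 to 203 around dusk, was lower around dawn by its log2 difference of −0.26. Midday gave miR-7a-5p levels of 26371 CPM at ZT6 and 11942 at ZT30, and midnight 11557 at ZT18 and 15906 at ZT42. ZT42 exceeded 2 of the 3 dawn libraries, and ZT2 and ZT6, the first libraries of the course, were the highest of all 11. How reads of the similar miR-7a-5p and miR-7b-5p were told apart is not given in the sources used here.

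**Figure D1:**
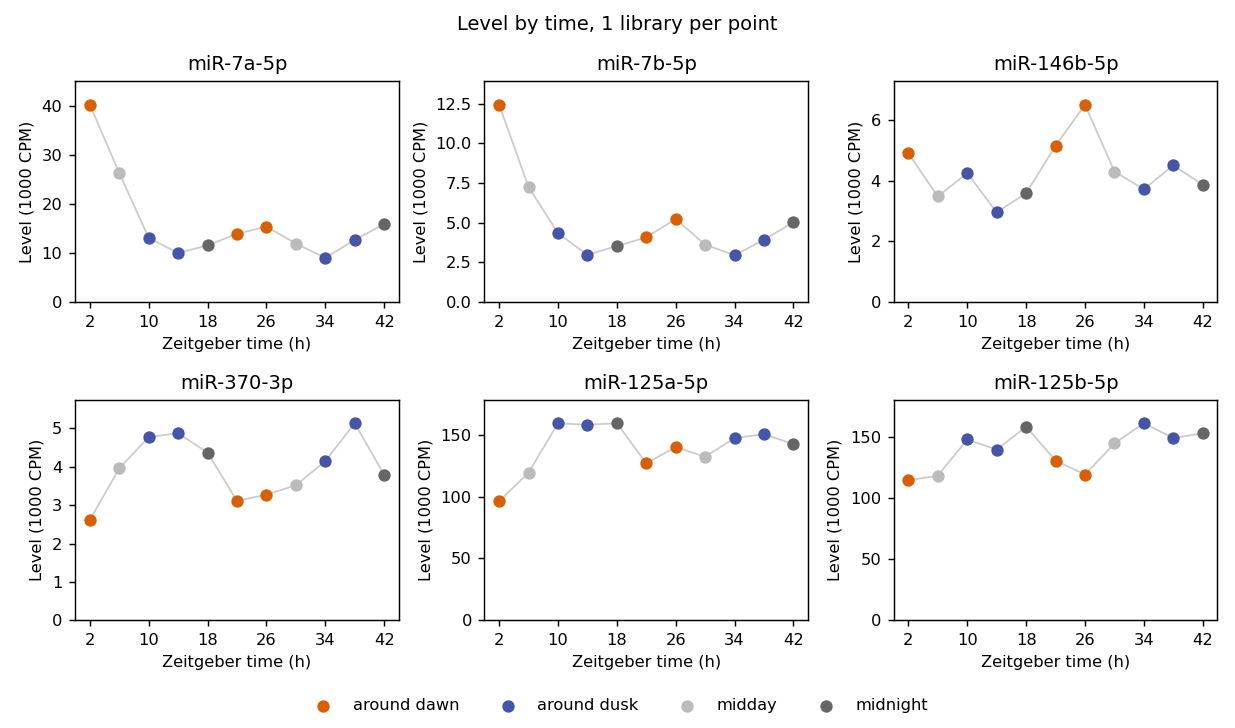
Level in 1000 CPM (y axis, from 0) against zeitgeber time in h (x axis) for 6 miRNAs, 1 library per point, coloured by group. miR-7a-5p and miR-7b-5p peak at ZT2 and at no later dawn time to that height, while miR-370-3p lies between 2605 and 3272 CPM around dawn and between 4145 and 5129.6 around dusk.

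Of the other miRNAs with higher values around dawn among the 20, miR-146b-5p was the one whose groups did not overlap. miR-146b-5p belongs to a family that limits NF-κB signalling, and it lies on chromosome 19, 46342762 to 46342870, in an intron of Mfsd13a. It stood at 4898, 5148 and 6502 CPM around dawn and at 4246, 2952, 3712 and 4506 CPM around dusk. The lowest dawn library, ZT2, was above the highest dusk library, ZT38, by less than the range within either group (log2 difference 0.52 ± 0.24 SE, limma adjusted p = 0.99). With median-ratio scaling the log2 difference of miR-146b-5p was 0.58 ± 0.31 SE, and the scaled ZT2 library lay below ZT38. Its seed partner miR-146a-5p was at 1447 to 1836 CPM around dawn and 976 to 1648 around dusk, a log2 difference of 0.38. miR-335-5p, from an intron of the imprinted Mest gene on chromosome 6, 30741299 to 30741396, was at 8299, 6463 and 3116 CPM around dawn and at 3864, 2479, 4059.5 and 4657 CPM around dusk. Its ZT26 library was below 3 of the 4 dusk libraries, and the difference was 1.24 in the first cycle and −0.48 in the second. Over both cycles it was 0.59, 0.29 without ZT2 and 0.997 without ZT26. miR-340-5p, from an intron of Rnf130, was at 198 to 308 CPM around dawn and 128 to 204 around dusk (1.48-fold higher around dawn), and miR-10a-5p, from the Hox gene region, at 98.4 to 134 CPM around dawn and 36.8 to 106 around dusk (1.5-fold higher around dawn). The log2 difference of miR-10a-5p went from 0.67 to 0.35 without ZT14. miR-541-3p, from the imprinted Mirg transcript, was at 75.9 to 87 CPM around dawn and 39.5 to 77.7 around dusk (1.42-fold higher around dawn). miR-598-3p was at 31.2 to 102 CPM around dawn and 17.3 to 41.5 around dusk. Its dawn range was set by ZT2, without which the difference went from 0.82 to 0.31.

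let-7f-5p and miR-98-5p, which share the let-7 seed GAGGUAG and lie side by side in an intron of Huwe1 on chromosome X (let-7f has a second precursor on chromosome 13), had like differences. let-7 miRNAs build up as cells differentiate and are held back by LIN28. let-7f-5p stood at 25929, 10475 and 19287 CPM around dawn and at 19082, 7613, 7868 and 11766 CPM around dusk. The ZT10 library came close to ZT26, and ZT22 lay below 2 of the dusk libraries (log2 difference 0.69 ± 0.35 SE, limma adjusted p = 0.99). miR-98-5p stood at 616, 192 and 264 CPM around dawn and at 291, 166, 153 and 193 CPM around dusk, with ZT10 above 2 of the 3 dawn libraries. Without ZT2 the log2 difference of let-7f-5p was 0.40 and that of miR-98-5p 0.21, against 0.69 for both with all 7 libraries. Without ZT22 they were 1.05 and 1.05. Without both ZT2 and ZT26 the difference was −0.040 for let-7f-5p and −0.016 for miR-98-5p. In the family of 9 tested miRNAs 6 were higher around dawn and 3 lower, with a median of 0.23 beside −0.056 over all miRNAs. With median-ratio scaling 8 were higher and 1 lower. Beyond the seed their sequences differ, and GC content runs from 31.8% in let-7f-5p and miR-98-5p to 45.5% in let-7b-5p.
let-7g-5p: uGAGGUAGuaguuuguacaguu
let-7i-5p: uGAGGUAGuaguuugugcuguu
let-7a-5p: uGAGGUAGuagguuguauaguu
let-7e-5p: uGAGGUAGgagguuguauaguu
let-7c-5p: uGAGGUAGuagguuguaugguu
let-7d-5p: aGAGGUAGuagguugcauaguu
let-7b-5p: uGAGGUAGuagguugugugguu

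Printed in the order of their differences, these members had log2 values of 0.56 (let-7g-5p), 0.42 (let-7i-5p), 0.23 (let-7a-5p), 0.065 (let-7e-5p), −0.016 (let-7c-5p), −0.034 (let-7d-5p) and −0.20 (let-7b-5p). Members differ by few bases, and how their reads were told apart is not given in the sources used here. The summed let-7 level was 39351 to 99109 CPM around dawn and 37755 to 87524 around dusk, and both ranges spanned more than 2-fold.

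miR-370-3p had the smallest p of all in the main test. It is made from an intron of Rian, a maternally expressed noncoding RNA of the imprinted Dlk1-Dio3 region, on chromosome 12, 109618258 to 109618336. It stood at 2605, 3108 and 3272 CPM around dawn and at 4769.7, 4868, 4145 and 5129.6 CPM around dusk. All dawn libraries were below all dusk libraries. The gap, from 3272 to 4145 CPM, was wider than the range of the dawn group but narrower than that of the dusk group. Its mean was 2995 ± 347 CPM around dawn (SD, n = 3) and 4728 ± 417 around dusk (SD, n = 4), 1.58-fold lower around dawn (log2 difference −0.66 ± 0.23 SE, limma adjusted p = 0.99). The 95% interval of the log2 difference was −1.15 to −0.17. As the groups did not overlap on the deposited scale, no choice among these libraries could turn the sign there, so only the sizes are given. The difference was −0.76 in the first cycle, −0.49 in the second and −0.60 without both ZT2 and ZT26. With median-ratio scaling it was −0.61 ± 0.29 SE, and the scaled ZT26 library lay above ZT34. The unadjusted p in limma was 0.012 on the deposited scale and 0.054 with median-ratio scaling. Midday levels were 3956 CPM at ZT6 and 3514 at ZT30, and midnight levels 4365 at ZT18 and 3783 at ZT42, 3 of the 4 between the highest dawn and the lowest dusk library. At 68.2% GC its sequence shared the highest GC content of the 17 with miR-770-5p.

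The lin-4 homologues miR-125a-5p and miR-125b-5p, with the seed CCCUGAG, were among the most abundant miRNAs of these libraries and both were lower around dawn with no overlap. miR-125a-5p, from an exon of Spaca6 on chromosome 17, 17830812 to 17830879, stood at 96276, 126857 and 140021 CPM around dawn and at 159190.0, 157988, 147240.0 and 150415 CPM around dusk. The dusk libraries lay close together and the dawn libraries spread widely below them (log2 difference −0.36 ± 0.17 SE, limma adjusted p = 0.99). miR-125b-5p stood at 114851, 130920.0 and 119435 CPM around dawn and at 148193, 139929, 161534 and 149334 CPM around dusk (log2 difference −0.30 ± 0.15 SE, limma adjusted p = 0.99). With quantile normalization the log2 differences were −0.18 for miR-125a-5p and −0.087 for miR-125b-5p. With median-ratio scaling they were −0.31 ± 0.32 SE and −0.24 ± 0.30 SE. The ZT26 library scaled in that way no longer lay below every dusk library for either miRNA. Without ZT2, on the deposited scale, the log2 difference of miR-125a-5p was −0.20. miR-125b-5p comes from precursors on chromosomes 9 and 16. As the share of each library that a miRNA takes is what is measured, a lower share of these miRNAs is also a higher share of others. The summed level of the 5 tested miR-125 arms (the lin-4 homologues) was 211621 to 259917 CPM around dawn and 298425 to 309383 around dusk, all dusk libraries above all dawn libraries. Its exact two-sided permutation p of 0.0571 was the smallest that 3 against 4 libraries allow (adjusted p = 0.43 over 19 lists). Nearly all of the sum is miR-125a-5p and miR-125b-5p, whose groups did not overlap, so this p was fixed in advance and adds nothing to them. The third member of the seed group, miR-351-5p, had a log2 difference of −0.35.
miR-351-5p: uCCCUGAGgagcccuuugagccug

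Further miRNAs with lower values around dawn came from several loci. miR-149-5p, from an intron of Gpc1 on chromosome 1, 92850378 to 92850443, stood at 4653, 4942 and 2841 CPM around dawn and at 5241, 6702, 5771 and 5042 CPM around dusk. The groups did not overlap, with ZT38 close above ZT22 (log2 difference −0.49 ± 0.26 SE, limma adjusted p = 0.99). Without ZT26 the log2 difference was −0.24. miR-668-3p, from an exon of Mirg, was at 439 to 559 CPM around dawn and 645 to 689.6 around dusk (1.34-fold lower around dawn) and miR-423-3p, from an intron of Nsrp1, at 244 to 276 CPM around dawn and 332 to 361 around dusk (1.35-fold lower around dawn), again without overlap. The other arm, miR-423-5p, overlapped, with 286 to 529.9 CPM around dawn and 395 to 782 around dusk, and its difference was −1.11 in the first cycle and 0.32 in the second. Over both cycles it was −0.54, −0.34 without ZT10 and −0.82 without ZT26. miR-770-5p, from an exon of the imprinted noncoding RNA Meg3, was at 545 to 1207 CPM around dawn and 1071 to 1349.6 around dusk, and its dawn minimum was ZT26, without which the difference went from −0.52 to −0.17. miR-150-5p, best known from mature lymphocytes, was at 306 to 468 CPM around dawn and 441 to 626 around dusk (1.46-fold lower around dawn), and miR-320-3p, which is made without the Drosha complex, at 117 to 264 CPM around dawn and 221 to 298 around dusk (1.43-fold lower around dawn). The log2 difference of miR-320-3p was −0.59, −0.89 without ZT2 and −0.30 without ZT26. Outside the 20, groups did not overlap for miR-298-5p and miR-744-5p, both lower around dawn. miR-298-5p was at 1028 to 1331 CPM around dawn and 1382 to 1711 around dusk, and miR-744-5p at 501 to 643 CPM around dawn and 648 to 817 around dusk. They did not overlap either for miR-1298-3p and miR-30e-3p, both higher. miR-1298-3p was at 36.8 to 45.6 CPM around dawn and 26.9 to 32.5 around dusk, and miR-30e-3p at 127 to 159 CPM around dawn and 101 to 122 around dusk. Of these 4, miR-298-5p, miR-744-5p and miR-30e-3p were singled out after their values were seen.

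**Figure D2:**
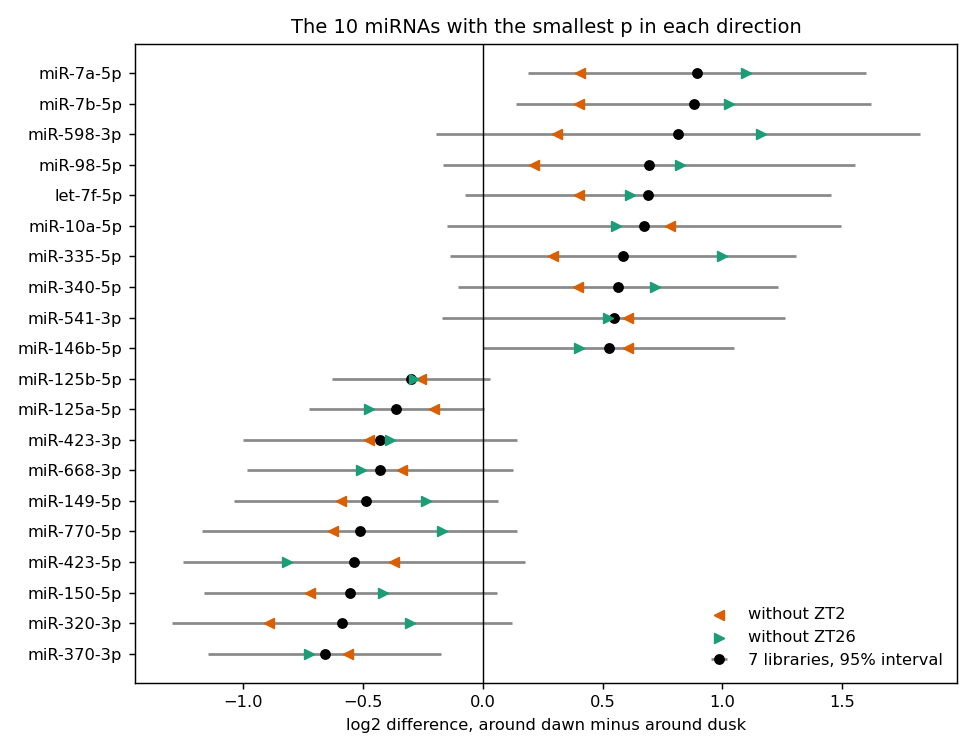
Log2 difference around dawn minus around dusk (x axis) for the 10 miRNAs with the smallest p in each direction; black points and bars are limma estimates with 95% intervals from 7 libraries, and triangles leave out ZT2 or ZT26. The intervals of 4 miRNAs, miR-7a-5p, miR-7b-5p, miR-146b-5p and miR-370-3p, lie on 1 side of 0, and for miR-7a-5p the triangle without ZT2 lies at 0.40.

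GC content did not overlap between the 9 named miRNAs higher around dawn and the 8 lower whose sequences are printed above. It ran from 27.3% to 45.5% (median 33.3%) in those higher around dawn, and from 50.0% to 68.2% (median 63.0%) in those lower. A slope of the same direction ran through the tested miRNAs. Across the 279 with a matched sequence (85.1%), the dawn minus dusk difference correlated with GC content with r = −0.57 and Spearman's rho = −0.58, over miRNAs that share the same 7 libraries. Of the 76 miRNAs with at most 40.9% GC, 52 were higher around dawn, with a median log2 difference of 0.21. Of the 73 with at least 57.1% GC, 7 were higher and 66 lower, with a median of −0.37.

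**Figure D3:**
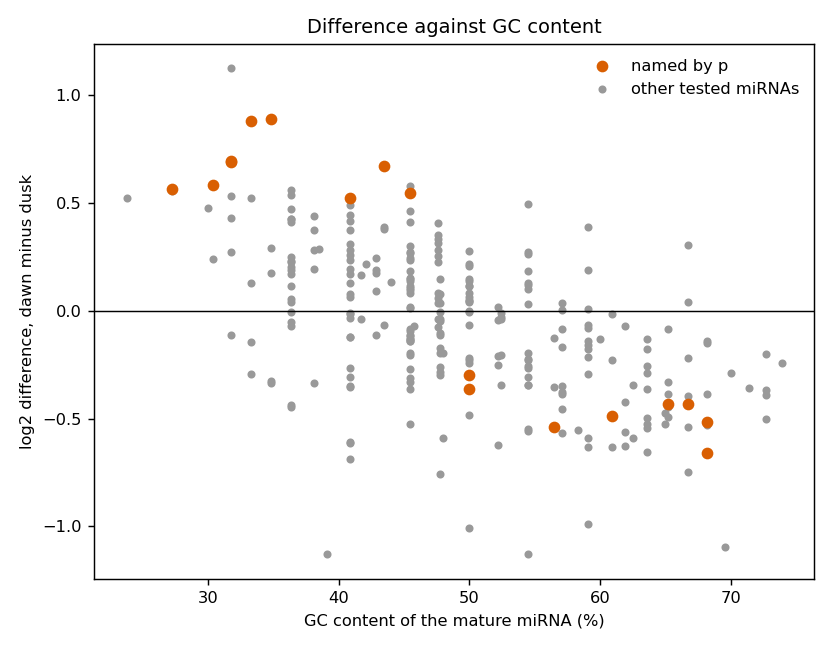
Each point is one of 279 tested miRNAs, with the GC content of its mature sequence (%) on the x axis and the log2 difference around dawn minus around dusk on the y axis; orange points are the 17 named by p. Points slope downwards (r = −0.57), and the orange points above 0 all lie at or under 45.5% GC, those below 0 at or over 50.0%.

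Each library was then set against the mean of the other 6. The log2 difference correlated with GC content negatively in all 3 dawn libraries, with r of −0.45 at ZT2, −0.11 at ZT22 and −0.12 at ZT26, and positively in all 4 dusk libraries, with r of 0.16 at ZT10, 0.25 at ZT14, 0.30 at ZT34 and 0.07 at ZT38. The groups did not overlap in this measure. It was steepest at ZT2, where the median log2 difference was 0.83 for the 76 miRNAs of low GC content and −0.052 for the 73 of high GC content. At ZT26 both were lower, at −0.42 and −0.39. Without ZT2 the correlation of the dawn minus dusk difference with GC content was −0.34, without ZT26 −0.57, and without both −0.27. Each of the 11 libraries of the time course was also set against the mean of the other 10. On that scale dawn had r of −0.50 at ZT2, −0.18 at ZT22 and −0.15 at ZT26. Dusk had 0.11 at ZT10, 0.20 at ZT14, 0.25 at ZT34 and 0.0033 at ZT38. Midday had 0.16 at ZT6 and −0.11 at ZT30, and midnight 0.39 at ZT18 and −0.090 at ZT42. ZT30 and ZT42 thus lay between ZT26 and ZT38. The pair at midday, like the pair at midnight, stood on opposite sides of 0.

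The part of each library's values that follows GC content on a straight line was then taken out. All 17 differences came nearer to 0, and their median size went from 0.55 to 0.34 on the log2 scale. The line was fitted to these same values, and the 17 were chosen by them and did not overlap in GC content between the directions. Which way they would shift was thus fixed in advance, and nothing is read from that count. Of all 279, 171 came nearer to 0, with a median size of 0.25 before and 0.19 after. miR-7a-5p went from 0.89 to 0.61, miR-370-3p from −0.66 to −0.29, miR-340-5p from 0.56 to 0.13, miR-770-5p from −0.52 to −0.14 and miR-668-3p from −0.43 to −0.086. The 2 miR-125 miRNAs, at 50.0% GC, moved least, from −0.36 to −0.35 and from −0.30 to −0.28. With this setting, added after seeing the data, 0 of 279 miRNAs passed an adjusted p of 0.05 in limma, and 2 had an unadjusted p under 0.05. Whether GC content or another property of these libraries accounts for the differences was not tested.

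The time course runs over 2 days, so dawn and dusk could be compared in each cycle with libraries that the other did not use. The first cycle set ZT2 and ZT22 against ZT10 and ZT14, and the second set ZT26 alone against ZT34 and ZT38, which gives values with no test. Of 328 miRNAs 142 (43.3%) had the same sign in both cycles, and the 2 differences correlated across miRNAs with r = −0.13 and Spearman's rho = −0.17. Of the 20 miRNAs with the largest first-cycle difference (mean of at least 50 CPM), 6 had the same sign in the second cycle. The log2 difference of miR-7a-5p was 1.05 in the first cycle and 0.53 in the second, that of miR-7b-5p 0.99 in the first cycle and 0.62 in the second, and that of miR-10a-5p 0.97 in the first cycle and 0.49 in the second. miR-1224-5p had −0.84 in the first cycle and −0.35 in the second, and miR-10b-5p and miR-1981-5p were close to 0 in the second. Of those with opposite signs, miR-340-5p (−0.0089) and miR-323-5p (0.018) were also close to 0 in the second. The largest first-cycle difference of these 20, that of miR-369-3p, was 1.27 in the first cycle and −0.84 in the second, and that of the neuronal miR-153-3p was 1.06 in the first cycle and −1.34 in the second. A term for the difference between the cycles in limma, added after seeing the data, passed for 0 miRNAs at an adjusted p of 0.05 (smallest 0.37) and had an unadjusted p under 0.05 for 32. The second cycle rests on 1 dawn library, ZT26, which stood apart from the rest as given above.

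**Figure D4:**
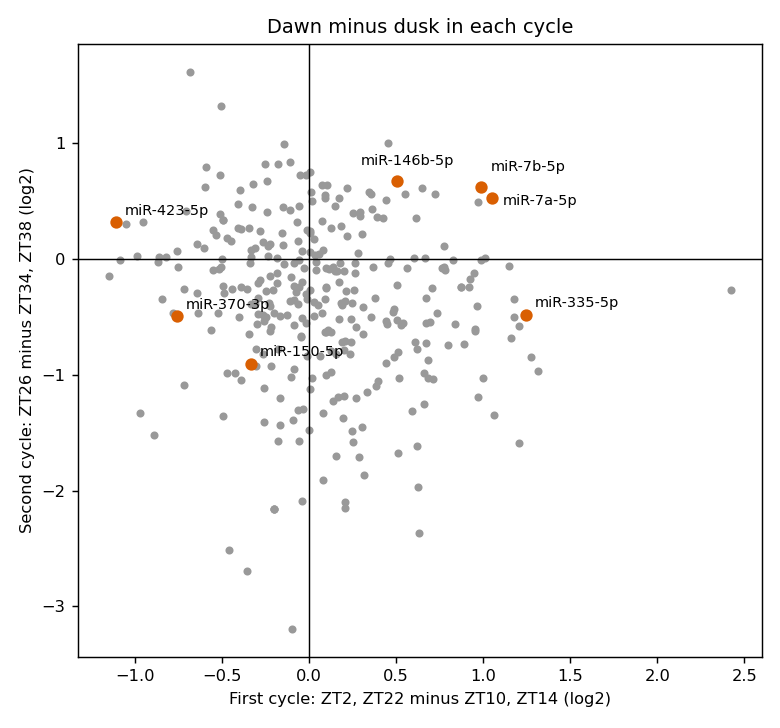
Each point is one of 328 miRNAs, with the log2 dawn minus dusk difference of the first cycle on the x axis and of the second on the y axis; 7 named miRNAs are orange. Points fill all 4 quadrants (142 of 328 have the same sign), with miR-7a-5p, miR-7b-5p and miR-146b-5p in the upper right and miR-370-3p and miR-150-5p in the lower left.

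The 4 libraries at midday and midnight were in neither group. For the 20 miRNAs named by p, the midday mean lay between the dawn and dusk means for 15 and the midnight mean for 10, and both did for 10. Over all 328 tested miRNAs the midday mean lay between for 94 (28.7%) and the midnight mean for 103 (31.4%). The 20 were chosen by the same dawn and dusk values, so nothing is read from their counts.

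Among 29 tested miRNAs listed as linked to the clock, 0 passed an adjusted p of 0.05 in limma. An unadjusted p under 0.05 was found for 2, miR-7a-5p and miR-7b-5p, beside 1.22% of all miRNAs. These 2 share a seed and have similar sequences. The list was written with earlier results of these data known, so nothing is read from its share. In the list 12 were higher and 17 lower around dawn with a median of −0.045, which median-ratio scaling turned to 15 higher, 14 lower and a median of 0.0093. The light-induced miR-132-3p stood at 474, 359 and 222 CPM around dawn and at 449, 548, 304 and 316 CPM around dusk. The dawn libraries spanned a wider range than the dusk libraries and held both the lowest value and one near the top (log2 difference −0.23 ± 0.34 SE, limma adjusted p = 0.99). The 95% interval was −0.96 to 0.51, and without ZT26 the sign turned to 0.073. Its cluster and seed partner miR-212-3p was at 66.9 to 174 CPM around dawn and 111 to 166 around dusk, with ZT2 the highest and ZT26 the lowest of the 7. miR-219-5p, whose precursor gene is a target of CLOCK and BMAL1, stood at 15.1, 18.7 and 8.3 CPM around dawn and at 10.3, 26.8, 33.2 and 8.7 CPM around dusk, and the dusk range covered nearly all of the dawn range (log2 difference −0.34, 95% interval −1.57 to 0.89).

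The sensory cluster of miR-183, miR-96 and miR-182, known from retina and other sensory organs, varied widely among the dusk libraries. miR-96-5p stood at 22.8, 8.6 and 12.8 CPM around dawn and at 18.8, 40.5, 12.8 and 81 CPM around dusk, the second largest difference of the 328 by size (log2 difference −1.13 ± 0.61 SE, limma adjusted p = 0.99). ZT38 and ZT14 were high and the other dusk libraries lay within the dawn range. miR-182-5p, at 33.8, 16.6 and 49.9 CPM around dawn and at 24.2, 66.3, 19.6 and 139 CPM around dusk, and miR-183-5p, at 54, 50.2 and 78 CPM around dawn and at 33.8, 121, 39.3 and 206 CPM around dusk, had their highest values in the same 2 libraries. Summed over the cluster the levels were 228 CPM at ZT14 and 426 at ZT38, against 76.8 at ZT10 and 71.7 at ZT34. Of the midday and midnight libraries ZT30 also was high, with 148 CPM of miR-183-5p against 21.5 at ZT6.

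The remaining clock-linked miRNAs overlapped between the groups, apart from miR-125a-5p. Of those reported to act on Per genes, miR-29a-3p was at 1980.2 to 6088 CPM around dawn and 2982 to 5230.0 around dusk, miR-30a-5p at 5772 to 6621 CPM around dawn and 4424 to 6406 around dusk, miR-192-5p at 408 to 528 CPM around dawn and 292 to 530.1 around dusk and miR-194-5p at 40.3 to 78.7 CPM around dawn and 48.5 to 78.4 around dusk. miR-24-3p was at 8915 to 11135 CPM around dawn and 8282 to 9741 around dusk and miR-27b-3p, reported to act on Bmal1, at 9551 to 12512 CPM around dawn and 8577 to 11901 around dusk. The 95% intervals of their log2 differences were −0.34 to 0.55 and −0.41 to 0.53. miR-185-5p, reported to act on Cry1, was at 650.3 to 1424 CPM around dawn and 686 to 996 around dusk, with ZT2 alone of the 7 above 996 CPM. miR-191-5p was at 33548 to 48591 CPM around dawn and 34148 to 51620.1 around dusk and miR-181a-5p at 1739 to 2014 CPM around dawn and 1964 to 2638 around dusk, with log2 differences of −0.044 and −0.30. miR-340-5p and miR-181d-5p had differences of 0.56 and 0.39, the second 0.032 without ZT2. At under 100 CPM in all 7 libraries, miR-29b-3p, miR-29c-3p, miR-93-5p, miR-122-5p, miR-140-5p, miR-152-3p and miR-494-3p had differences of −0.33, −0.0030, 0.020, 0.24, −0.18, 0.28 and −0.33 with standard errors of 0.44 to 0.72. miR-107-3p, at 40.5 to 161 CPM around dawn and 61 to 98.4 around dusk, had a difference of −0.045, and miR-433-3p, at 970.4 to 1509.8 CPM around dawn and 1216 to 1646 around dusk, of −0.22. The clock-linked miR-17-5p, miR-34a-5p, miR-106b-5p, miR-141-3p, miR-142-3p, miR-155-5p and miR-206-3p were listed in the files but below the minimum and were not tested.

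**Figure D5:**
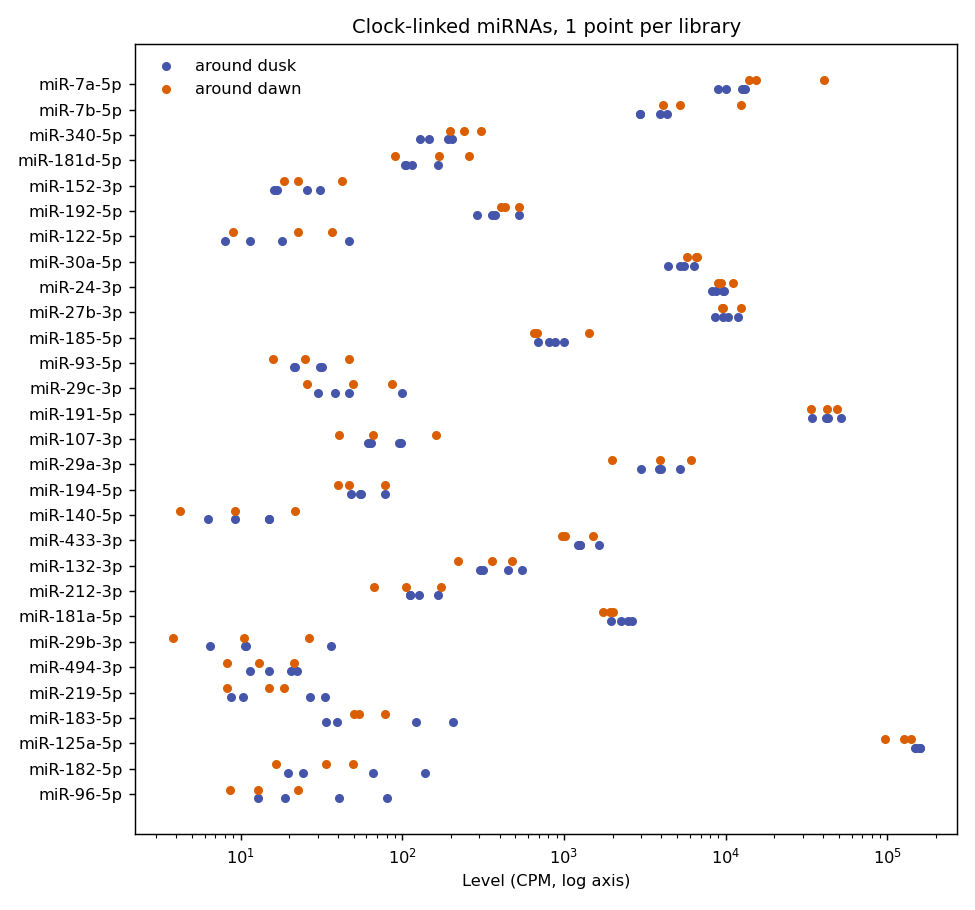
Level in CPM (x axis, log scale) of the 29 tested clock-linked miRNAs (rows, ordered by their difference) with 1 point per library, 3 around dawn and 4 around dusk. The 2 colours overlap in all rows but miR-7a-5p, where dawn lies above dusk, and miR-125a-5p, where it lies below.

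Of the other lists, none had a member with an adjusted p under 0.05 in limma, and members with an unadjusted p under 0.05 were miR-7a-5p and miR-7b-5p of the hypothalamic and endocrine list and miR-370-3p of the Dlk1-Dio3 list. Of neuronal miRNAs, 12 were higher and 9 lower around dawn of 21 tested (median log2 difference 0.11). They ran from miR-149-5p at −0.49 to miR-135b-5p at 0.51, and miR-128-3p was at 4930.0 to 10588 CPM around dawn and 4548 to 7645 around dusk. Of activity-regulated miRNAs, 3 were higher and 10 lower around dawn of 13 tested (median log2 difference −0.23). Their sum, most of it miR-125b-5p, was 130671 to 145952 CPM around dawn and 156535 to 175803 around dusk (exact two-sided permutation p = 0.0571, adjusted p = 0.43). That p is no separate result, since the groups of miR-125b-5p did not overlap. miR-199a-5p was at 17.1 to 24.2 CPM around dawn and 23.6 to 48.5 around dusk. Hypothalamic and endocrine miRNAs other than the miR-7 guide strands had differences from −0.61 (miR-200a-3p) to 0.014 (miR-375-3p). The listed miR-7a-1-3p, miR-200b-3p, miR-200c-3p, miR-141-3p and miR-429-3p were below the minimum and were not tested. Of miRNAs of the imprinted Dlk1-Dio3 region outside the miR-379 to miR-410 cluster, 4 were higher and 13 lower around dawn of 17 tested (median log2 difference −0.14), with miR-434-3p at 16583 to 21178 CPM around dawn and 19416 to 24689 around dusk. Within the miR-379 to miR-410 cluster, 21 were higher and 20 lower around dawn of 41 tested (median log2 difference 0.012).

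In the miR-30 family, 3 were higher and 2 lower around dawn of 5 tested (median log2 difference 0.087), or 4 and 1 with median-ratio scaling, with miR-30e-5p at 4864 to 5528 CPM around dawn and 3391 to 6024 around dusk. In the miR-29 family all 4 tested were lower around dawn, from −1.01 (miR-29c-5p, at 1.1 to 11.4 CPM around dawn and 4.3 to 15.4 around dusk) to −0.0030 (miR-29c-3p). With median-ratio scaling 1 of them was higher. In the miR-17 to miR-92a clusters, 2 were higher and 3 lower around dawn of 5 tested (median log2 difference −0.25), miR-92a-3p being at 242 to 348 CPM around dawn and 329.7 to 540.0 around dusk and miR-92b-3p at 1680.1 to 1938 CPM around dawn and 1713 to 2781 around dusk. Of miRNAs of the Htr2c intron, 4 were higher and 1 lower around dawn of 5 tested (median log2 difference 0.12), all 5 being higher with median-ratio scaling, with miR-448-5p at 10.1 to 18.7 CPM around dawn and 9.2 to 17.3 around dusk. Of 28 groups of tested miRNAs that share a seed, 17 had all members on 1 side, 13 of 18 pairs and 4 of 10 larger groups. Seed partners often have similar sequences.

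Summed markers of other cells that a dissected piece can hold overlapped between the groups. Each sum follows its most abundant members, whatever cells these come from. Erythrocyte miRNAs summed to 1549.5 to 1751 CPM around dawn and 1641 to 1794 around dusk. Most of this came from the listed miR-16-5p and miR-486-5p. By contrast, miR-451a was at 21.8 to 31.1 CPM around dawn and 22.6 to 52.6 around dusk. For miR-144-3p the levels were 16.1 to 29.2 CPM around dawn and 8.8 to 27.9 around dusk. In the choroid plexus and ciliated-cell list, miR-204-5p is also counted among the hypothalamic and endocrine miRNAs. Of oligodendrocyte miRNAs, whose sum is given above, miR-338-3p was at 411 to 892 CPM around dawn and 406 to 796 around dusk and miR-138-5p at 53.8 to 172 CPM around dawn and 86.1 to 188 around dusk. Microglia and leukocyte miRNAs summed to 5789 to 9592 CPM around dawn and 6996 to 9369 around dusk. Most of that sum was miR-342-3p, with miR-21a-5p at 229 to 492 CPM around dawn and 211 to 253 around dusk. The listed miR-142-3p, miR-142-5p, miR-155-5p and miR-223-3p were below the minimum and were not tested. Choroid plexus and ciliated-cell miRNAs summed to 3659 to 6115 CPM around dawn and 4138 to 5295 around dusk. Among them miR-34c-5p was at 747 to 1042 CPM around dawn and 727 to 752 around dusk, and miR-204-3p at 7.2 to 26 CPM around dawn and 19.5 to 25.7 around dusk. Of muscle and liver miRNAs, miR-1a-3p was at 30 to 49.9 CPM around dawn and 13.2 to 36.9 around dusk and miR-133a-3p at 8.7 to 17.6 CPM around dawn and 11.9 to 23.9 around dusk. Of vascular miRNAs 6 of 7 tested were higher around dawn, and 7 with median-ratio scaling (median log2 difference 0.38), among them endothelial miR-126-3p at 781 to 1396 CPM around dawn and 571 to 969.9 around dusk and miR-10a-5p, and summed to 4557 to 6549 CPM around dawn and 3504 to 5401 around dusk, with overlap. Their part in the differences of other miRNAs was not tested. In tissue, fewer cells of a type and less RNA per cell cannot be told apart. Exact two-sided permutation tests of the 19 summed levels gave no adjusted p below 0.43.

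The 10 most abundant miRNAs of each library held 62.6% (ZT2) to 71.8% of its total. Beside miR-125a-5p, miR-125b-5p and miR-7a-5p they included miR-26a-5p at 101222 to 163911 CPM around dawn and 85529.7 to 128054 around dusk, miR-127-3p at 80618 to 107373 CPM around dawn and 79276 to 119869 around dusk, miR-99a-5p at 54225 to 71983 CPM around dawn and 42106 to 57704 around dusk, miR-191-5p, miR-124-3p, miR-99b-5p at 19304 to 38955 CPM around dawn and 20423 to 38880.3 around dusk and miR-434-3p. The 95% interval of the log2 difference was −0.40 to 0.42 for miR-127-3p, −0.49 to 0.40 for miR-191-5p, −0.63 to 0.36 for miR-124-3p and −0.17 to 0.73 for miR-26a-5p, each excluding a 2-fold difference. miR-26a-5p, 1.22-fold higher around dawn by means, had its highest value at ZT26 and its lowest at ZT14.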

How the data were processed

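Small-RNA libraries of mouse SCN were grouped by the labelled zeitgeber time alone. Bowtie and the build GRCm38 (mm10) are named without role or version per the submitters' processing notes; the counting is not given in the sources used here. The authors deposited, for each mature miRNA, a normalized signal in whole numbers, and these sum to 10009253 to 10013828 in the 7 libraries; in each, a single step reproduced 100% of the values exactly as multiples rounded down, which gives the depth. Levels are the deposited value divided by 10 (CPM); a miRNA not listed was taken as 0. miRNAs with a value of 100 or more in at least 3 of the 7 libraries were tested with limma-trend (limma 3.58.1, R 4.3.3) on log2(value + 1), two-sided, with Benjamini-Hochberg adjustment over the 328 miRNAs and a threshold of 0.05. The scripts were tested on simulated data. Fold changes are ratios of mean CPM, and log2 differences are those of the model. Adding 1 to each value draws the differences of low miRNAs towards 0. Intervals and floors cover 95% and, for floors, counting error only. No miRNA passed the minimum through dawn libraries alone, and 1, miR-877-3p, passed through dusk libraries alone.

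The members, lists and tests were chosen with earlier results of these data known. Named were the 10 smallest p in each direction with a mean of at least 50 CPM in the higher group (since fewer than 5 passed), the 10 most abundant, all tested clock-linked miRNAs and the 2 smallest p of each of 19 lists. miR-486-5p and miR-3107-5p, let-7a-1-3p and let-7c-2-3p, and miR-466b-3p, miR-466c-3p and miR-466p-3p agreed within 2% in every library and were tested as separate entries. Alternatives were median-ratio scaling, quantile normalization, other filters and pseudocount, the cycle (before or after 24 h) as a covariate, models over 11 libraries, and leaving out libraries. The design named a count test for raw counts; as the files hold normalized values, none was run. Summed levels were compared by exact permutation over the 35 orders.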

Additional observations from a re-analysis of the deposited data

Results flagged for a closer look

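Within the 4 dusk libraries, 1 library lay far from the others for 6 of the 69 named miRNAs, by the gap to its neighbour over the range of the group (Dixon's limit at 95%); chance alone passes about 1 in 20 groups. miR-181d-5p stood at 167 CPM at ZT10 against 105 to 115 in the other dusk libraries. miR-433-3p stood at 1646 CPM at ZT10 against 1216 to 1261 in the other dusk libraries. miR-92a-3p stood at 540.0 CPM at ZT10 against 329.7 to 348 in the other dusk libraries. miR-29b-3p stood at 36.4 CPM at ZT14 against 6.5 to 10.8 in the other dusk libraries. miR-124-3p stood at 45836 CPM at ZT34 against 34472 to 35887 in the other dusk libraries. miR-448-5p stood at 17.3 CPM at ZT34 against 9.2 to 9.6 in the other dusk libraries. In all 6 the library that stood apart was the highest of the 4.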

How the results depend on the processing

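No setting gave a miRNA with an adjusted p under 0.05 in limma: the count was 0 with median-ratio scaling, quantile normalization, no filter (723 miRNAs), a minimum of 1000 (171 miRNAs), a pseudocount of 10, the cycle as covariate, 4 phase groups or a 24 h cosine term over 11 libraries, each of the 7 libraries left out, ZT2 and ZT26 both left out, and GC adjustment, the last 2 chosen after seeing the data. Unadjusted p under 0.05 was reached by 2 to 17 miRNAs. The smallest adjusted p over these settings was 0.52, without ZT26. Median-ratio scaling gave 164 miRNAs higher and 164 lower around dawn. edgeR and DESeq2 were not run, since the files hold no counts. No paired analysis was possible because each library is its own time point and carries no replicate number. The 20 miRNAs named by p kept their direction under every setting in which each was run (miR-598-3p and miR-541-3p did not pass the minimum of 1000, and miR-598-3p, miR-150-5p and miR-320-3p had no sequence for GC adjustment), except with ZT2 and ZT26 both left out, where let-7f-5p was at −0.040 and miR-98-5p at −0.016; the cause was not tested. For the 8 of the 20 whose groups did not overlap, leaving out libraries could not turn the sign. All 20 were chosen by these same values, so nothing is read from the directions they kept. Outside the 20, others of the 69 named miRNAs changed sign. With median-ratio scaling miR-107-3p was at 0.0093, miR-191-5p at 0.011 and miR-29c-3p at 0.051. With quantile normalization miR-127-3p was at −0.052, miR-140-5p at 0.052, miR-24-3p at −0.13, miR-27b-3p at −0.18 and miR-29c-3p at 0.037, and with the cycle as covariate miR-185-5p was at −0.0033. Leaving out 1 library gave log2 ranges across 0 for miR-107-3p −0.59 to 0.41, miR-122-5p −0.22 to 0.80, miR-124-3p −0.36 to 0.10, miR-127-3p −0.084 to 0.15, miR-132-3p −0.48 to 0.073, miR-138-5p −0.71 to 0.13, miR-140-5p −0.77 to 0.40, miR-152-3p −0.065 to 0.53, miR-183-5p −0.74 to 0.13, miR-185-5p −0.33 to 0.23, miR-191-5p −0.17 to 0.10, miR-194-5p −0.42 to 0.061, miR-212-3p −0.61 to 0.082, miR-27b-3p −0.064 to 0.14, miR-29a-3p −0.49 to 0.32, miR-29b-3p −1.01 to 0.38, miR-29c-3p −0.43 to 0.44, miR-30e-5p −0.025 to 0.25, miR-494-3p −0.68 to 0.0043, miR-93-5p −0.39 to 0.39, miR-99b-5p −0.37 to 0.14. Standard errors had a median of 0.38 on the log2 scale, and 0.27 for miRNAs of at least 1000 CPM. Depth limits the rarest of the tested miRNAs, such as miR-29c-5p, whose lowest level of 1.1 CPM lies near that of 3 reads.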
